A study of Mus musculus with 26 samples.

Results

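The 7 genes described here encode the core of the MHC class II presentation pathway of the mouse. They are the invariant chain gene Cd74, the classical chain genes H2-Aa, H2-Ab1 and H2-Eb1, the H2-DM peptide editor genes H2-DMa and H2-DMb1, and the transactivator gene Ciita. They were taken by symbol out of 39179 genes counted in each library, and all 7 were among the 16325 genes that passed the filter on low counts, Ciita through its stroke libraries. H2-Aa (ENSMUSG00000036594), H2-Ab1 (ENSMUSG00000073421), H2-Eb1 (ENSMUSG00000060586), H2-DMa (ENSMUSG00000037649) and H2-DMb1 (ENSMUSG00000079547) lie on chromosome 17 in the mouse H2 complex. Ciita (ENSMUSG00000022504) lies on chromosome 16 and Cd74 (ENSMUSG00000024610) on chromosome 18.

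The RNA came from cortex of C57BL/6J mice, an inbred laboratory strain, taken 3 days after focal ischemia, or from sham-operated mice. Stroke samples held the core of the lesion and the tissue around it. The diets had 60% (high-fat) or 6% (control) of their calories from fat. The stroke groups held 6 libraries after 15 weeks and 6 after 6 weeks of high-fat diet, and 4 after 15 weeks and 4 after 6 weeks of control diet. The sham groups held 3 libraries after 6 weeks of high-fat diet and 3 after 6 weeks of control diet. None of the 26 libraries came from sham cortex after 15 weeks. The labels give no age and no batch, and do not say that each library is a separate animal, so the p-values below cover only the spread among 26 libraries, which may be technical. Replicate numbers below only name libraries.

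Class II molecules are pairs of an alpha and a beta chain that carry peptides of endocytosed proteins to the cell surface, where CD4 T cells read them. The invariant chain fills the groove of newly made pairs, proteases cut it down to a fragment, and H2-DM exchanges that fragment for peptides. In the brain the pathway is low in resting microglia and is known to be used by activated microglia, border macrophages and blood-derived cells. CIITA does not bind DNA itself but joins the RFX and NF-Y proteins on the X and Y boxes of class II promoters. C57BL/6 mice are known to carry no functional I-E alpha gene, so that the I-E beta chain of H2-Eb1 has no regular partner, while H2-Aa and H2-Ab1 form the I-A molecule.

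Promoter sequences are shown because class II genes are known to share the X and Y boxes. The part of these boxes in the levels after stroke was not tested. The RefSeq promoter table (GRCm38.p6) held entries for H2-Aa, H2-Eb1, H2-DMa and H2-DMb1, that is 4 of the 7 genes, and not for H2-Ab1, Cd74 and Ciita. The 250 bases before the annotated start of H2-Aa (chr17:34287824-34288073, minus strand) and of H2-Eb1 (chr17:34305617-34305866, plus strand) read as follows, 5′ to 3′, with matches to a Y box core and an X box core in capitals.
H2-Aa: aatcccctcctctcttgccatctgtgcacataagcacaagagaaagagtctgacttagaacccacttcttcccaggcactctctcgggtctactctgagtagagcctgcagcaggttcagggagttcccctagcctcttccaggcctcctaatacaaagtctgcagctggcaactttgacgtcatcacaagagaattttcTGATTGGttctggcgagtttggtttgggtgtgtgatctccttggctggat
H2-Eb1: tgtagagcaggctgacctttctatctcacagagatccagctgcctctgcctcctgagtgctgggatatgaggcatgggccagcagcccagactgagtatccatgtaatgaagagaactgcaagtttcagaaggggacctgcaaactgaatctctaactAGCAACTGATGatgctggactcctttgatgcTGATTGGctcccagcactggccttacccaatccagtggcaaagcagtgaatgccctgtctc

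The Y box core was searched as TGATTGG, and the X box core as AG, any 2 bases, AC, any base and GATG, each on both strands, and the matches do not overlap in these windows. Both were written with these promoters in view, so the matches are a description. Counted back from the RefSeq start, the Y box core began 50 bases before that of H2-Aa, 61 before that of H2-Eb1 and 63 before that of H2-DMb1. The X box core began 92 bases before the start in H2-Eb1 (AGCAACTGATG) and 95 in H2-DMb1 (AGTAACTGATG). The H2-Aa window holds no match to the letters searched, which does not show that an X box is absent there. GENCODE M21 starts H2-DMb1 further upstream, at 34153072 of chromosome 17, so both H2-DMb1 matches lie inside that transcript and not before it. Of 32851 promoters of the same length, 7.23% held the Y box core, 0.816% the X box core and 0.0517% (17 promoters) both. Neither core was in the windows of the 2 H2-DMa starts in the table. GENCODE M21 gives further protein-coding H2-DMa transcripts, at 34135628 and 34135654 of chromosome 17, whose windows were not searched.

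Counts in genes ranged between 11400882 and 16962682 per library, and levels are given as TMM-scaled CPM, the count of a gene relative to its library's total. For orientation, 3 counts equal between 0.173 and 0.264 CPM. The 6 markers of cortex neurons summed to between 2872.7 and 4580.4 CPM in 15-week high-fat stroke, the lowest of the 6 groups, and to between 4462.9 and 4788.6 CPM in control-diet sham, so the defining markers of the labelled tissue were high in every library. Of the 15-week libraries, high-fat stroke replicate 1 and control-diet stroke replicate 3 stood nearest to sham. Their summed levels of 7 microglia markers were 321.5 and 354.0 CPM, where sham libraries reached 266.9 CPM. Choroid plexus genes summed to 943.2 CPM in 6-week high-fat stroke replicate 6 and to 268.9 CPM in high-fat sham replicate 2, against at most 81.1 CPM in every other library. The share of counts outside genes averaged 21.6% ± 0.821 (SD, n = 6) in 6-week high-fat stroke against 25.9% ± 2.39 (SD, n = 3) in high-fat sham, and 21.4% ± 1.66 (SD, n = 4) in 6-week control-diet stroke against 24.7% ± 1.78 (SD, n = 3) in control-diet sham.

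Stroke was set against sham surgery on each diet at 6 weeks. On the high-fat diet each of the 7 genes rose, by log2 fold changes between 0.88 (H2-DMa) and 4.33 (Ciita), where 14.2% of all genes tested were called higher. On the control diet 5 of 7 rose, namely Cd74, H2-Aa, H2-Ab1, H2-Eb1 and Ciita, where 5.1% of all genes were called higher. Ciita passed the filter on low counts only through its stroke libraries, so it had to differ. Over the 6 genes that sham libraries alone would have passed, 6 rose on the high-fat and 4 on the control diet, and their median log2 fold change was 2.55 and 2.25, against -0.02 and 0.0026 over all genes tested. The levels of all 7 genes on the high-fat diet, and of 6 on the control diet (all but H2-DMa), were higher in every stroke library than in every sham library of the same diet. No overlap in that direction was seen for 15.8% and 14.9% of all genes. The counts of 7 and 6 include Ciita, which had to differ. In bulk tissue, more cells of a type and more RNA per cell cannot be told apart. The share of counts outside genes moved with surgery, as given above.

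**Figure D1:**
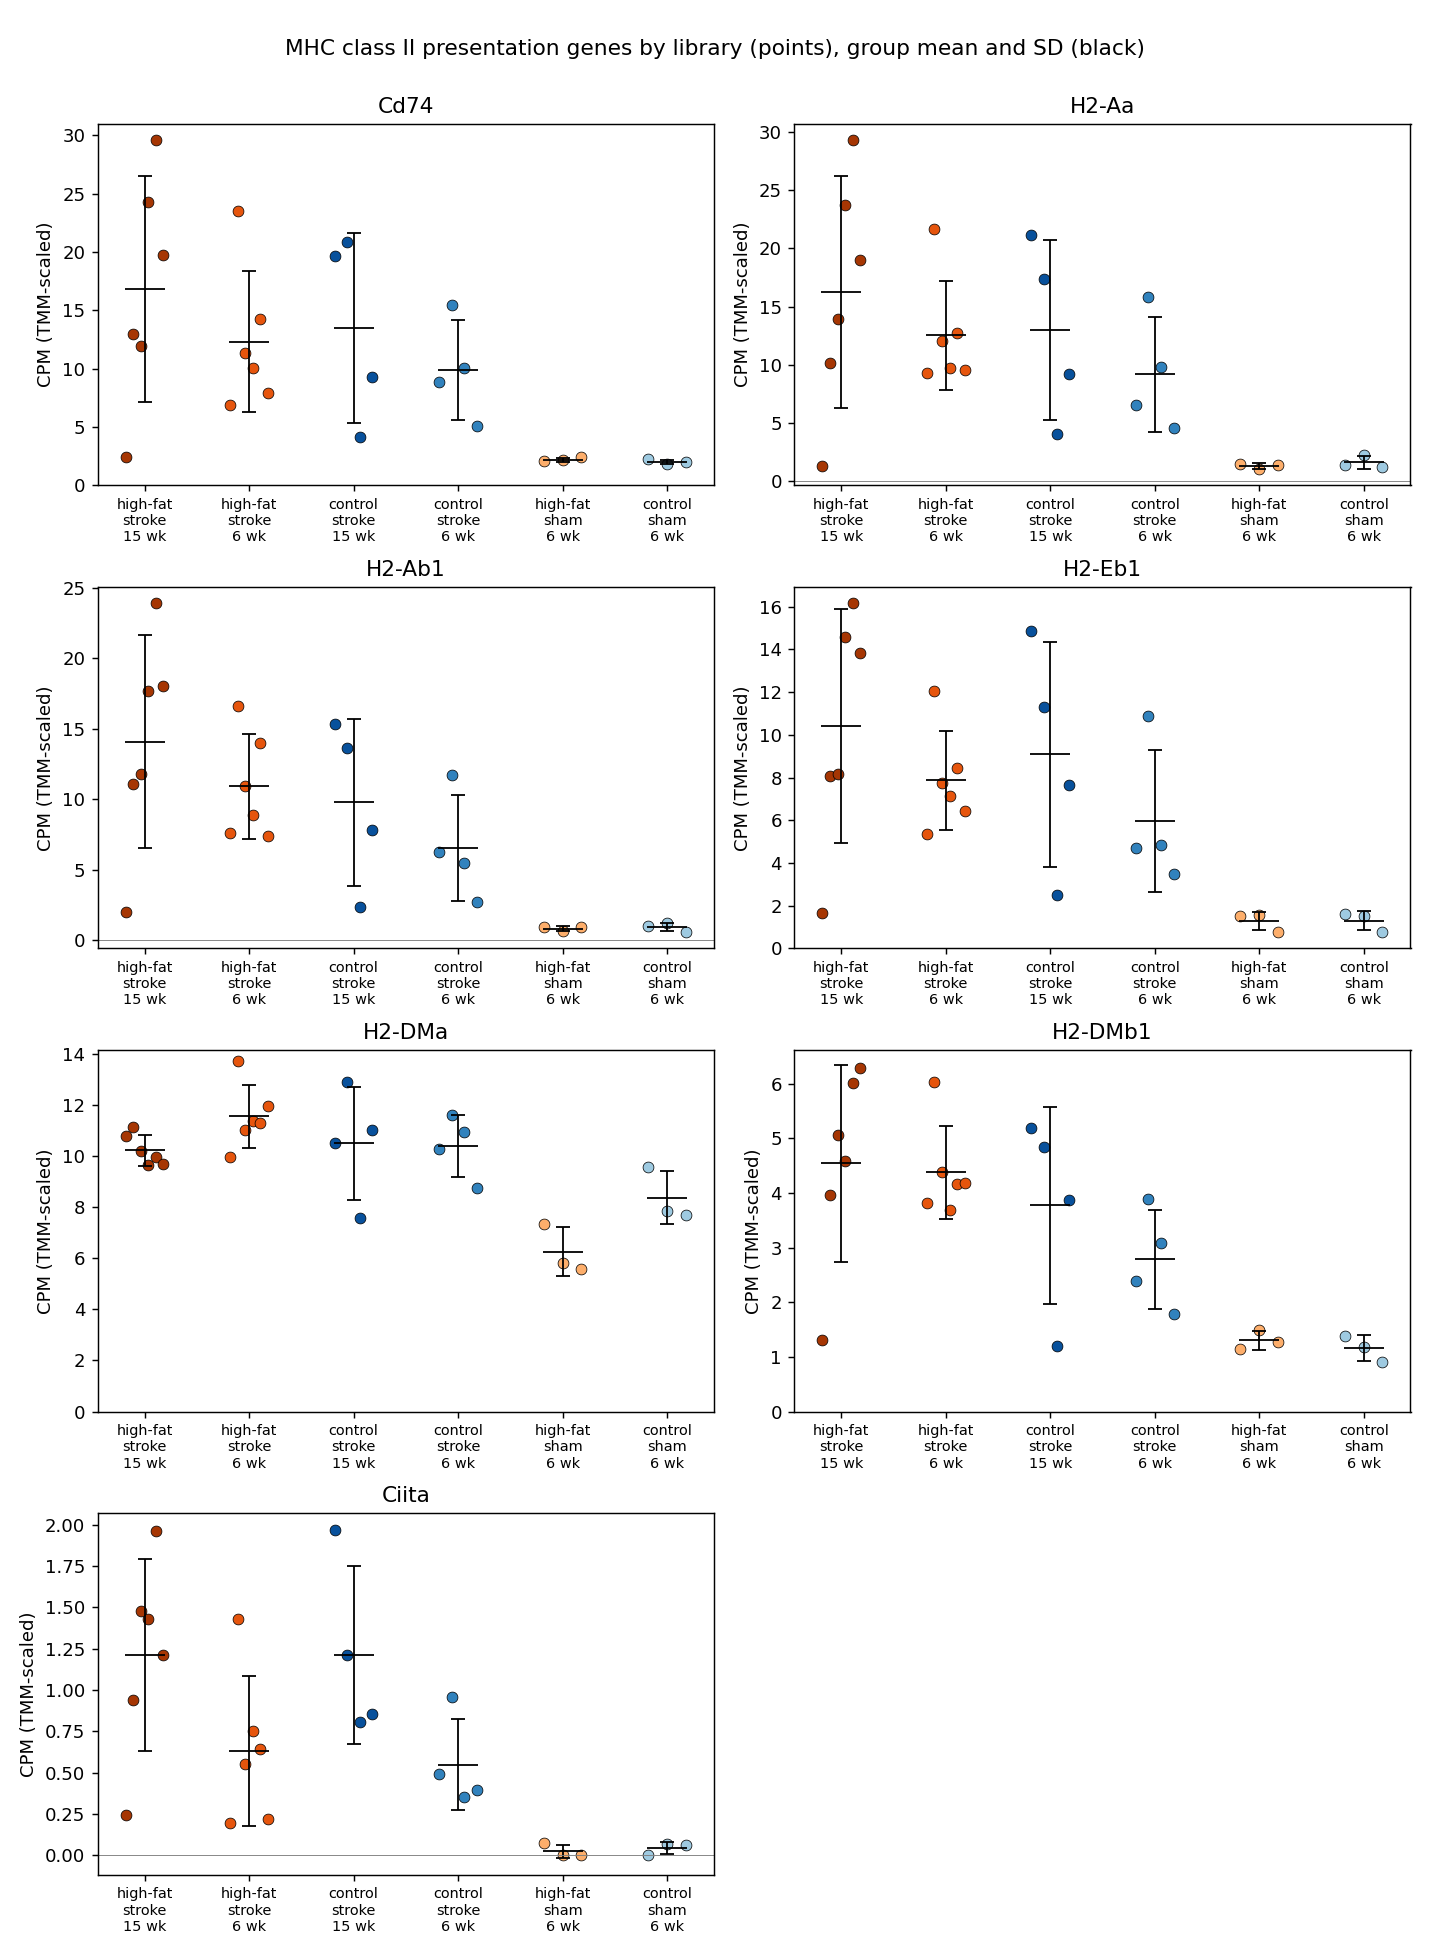
Level in CPM (vertical axis, linear) of each gene in each of the 26 libraries, with the 6 groups along the horizontal axis. Points are libraries and black marks give the group mean and SD. The mean of each stroke group lies above both sham means in each panel, and 15-week high-fat stroke shows the widest scatter for H2-Aa, between 1.32 and 29.3 CPM.

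The invariant chain gene Cd74, whose product guides class II pairs to the endosome, had the highest mean of the 7 genes per kilobase of exon in each stroke group. On the high-fat diet it ranged between 6.92 and 23.5 CPM with a median of 10.7 in the 6 stroke libraries, against 2.09, 2.13 and 2.41 CPM in sham. On the control diet it stood at 8.86, 15.5, 10.04 and 5.07 CPM in stroke and at 2.21, 1.82 and 2.01 CPM in sham. Sham libraries lay close together, while the stroke libraries of a group were spread widely and all lay above sham. The log2 fold change was 2.48 ± 0.66 (SE, edgeR adjusted p = 0.00963) on the high-fat diet and 2.29 ± 0.69 (SE, edgeR adjusted p = 0.0460) on the control diet.

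The classical chain genes rose on both diets. H2-Aa, the I-A alpha chain gene, ranged between 9.32 and 21.7 CPM with a median of 10.9 in high-fat stroke, against 1.51, 1.06 and 1.42 CPM in high-fat sham. In control-diet libraries H2-Aa was at 6.54, 15.9, 9.77 and 4.54 CPM in stroke and at 1.38, 2.24 and 1.23 CPM in sham. Its log2 fold changes were 3.23 ± 0.74 (SE, edgeR adjusted p = 0.00403) and 2.51 ± 0.75 (SE, edgeR adjusted p = 0.0437) on the high-fat and control diet. H2-Ab1 encodes the beta chain that pairs with it. It ranged between 7.39 and 16.6 CPM with a median of 9.92 in high-fat stroke, against 0.937, 0.638 and 0.920 CPM in sham, and was at 6.26, 11.7, 5.46 and 2.70 CPM in control-diet stroke against 1.04, 1.19 and 0.583 CPM in sham. No sham library was above 1.19 CPM, and the log2 fold changes, 3.70 ± 0.74 (SE, edgeR adjusted p = 0.00143) on the high-fat and 2.81 ± 0.76 (SE, edgeR adjusted p = 0.0278) on the control diet, were the largest after Ciita. H2-Eb1, the I-E beta chain gene, moved alongside. Its level ranged between 5.37 and 12.04 CPM with a median of 7.46 in high-fat stroke, against 1.51, 1.56 and 0.778 CPM in sham, and was at 4.71, 10.9, 4.84 and 3.49 CPM in control-diet stroke against 1.59, 1.54 and 0.777 CPM in sham. It rose by 2.61 ± 0.63 (SE, edgeR adjusted p = 0.00525) and 2.21 ± 0.66 (SE, edgeR adjusted p = 0.0425) on the log2 scale. H2-Ea-ps, the remnant of the I-E alpha gene, had 0 counts in all 26 libraries.

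Both peptide editor genes were called higher in high-fat stroke, and neither in control-diet stroke by edgeR with all 6 groups in the fit. H2-DMb1, the beta chain gene, ranged between 3.69 and 6.02 CPM with a median of 4.17 in high-fat stroke, against 1.15, 1.49 and 1.27 CPM in sham, and rose by 1.74 ± 0.40 on the log2 scale (SE, edgeR adjusted p = 0.00357). On the control diet it was at 2.39, 3.88, 3.08 and 1.78 CPM in stroke and at 1.38, 1.19 and 0.906 CPM in sham, without overlap, but its fitted difference of 1.26 ± 0.44 on the log2 scale (SE, 95% interval 0.35 to 2.17) had an edgeR adjusted p of 0.0776. It was called higher there by edgeR with only the groups compared (adjusted p = 0.0137), by DESeq2 (adjusted p = 0.0366) and by voom (adjusted p = 0.0179). Of the 50-base words in its longest transcript, 27.2% also stand in H2-DMb2, a near copy, so counts between these genes are uncertain. H2-DMa, the alpha chain gene, was already measurable in sham. It ranged between 9.96 and 13.7 CPM with a median of 11.3 in high-fat stroke, against 7.35, 5.82 and 5.59 CPM in sham, and rose by 0.88 ± 0.14 (SE, edgeR adjusted p = 0.000282). In control-diet stroke it was at 10.3, 11.6, 10.9 and 8.76 CPM, and in control-diet sham at 9.55, 7.83 and 7.70 CPM. These ranges overlapped, with a log2 difference of 0.31 ± 0.14 (SE, 95% interval 0.01 to 0.61, edgeR adjusted p = 0.192), while voom called it higher (adjusted p = 0.0457). H2-DMa exons overlap exons of Brd2 on the opposite strand, and the strand setting of the counting is not given in the sources used here. Brd2, a chromatin reader gene, averaged between 131.5 and 145.2 CPM in all 6 groups and was not called for stroke on either diet. Reads of these neighbours cannot be told apart without strand.

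Ciita, the transactivator gene, was the rarest. In high-fat stroke it had between 3 and 24 counts per library (0.194 to 1.43 CPM, median 0.598), against 1, 0 and 0 counts in sham. In control-diet stroke it had 7, 15, 4 and 6 counts, against 0, 1 and 1 in sham. Every stroke library thus lay above every sham library on a base of very few counts. Summed over libraries and scaled by depth, the ratio was 27.5 on the high-fat diet (62 counts in stroke against 1 in sham, exact 95% interval 4.75 to 1102, counting error only) and 12.5 on the control diet (32 against 2, interval 3.20 to 107.9). The fitted log2 fold changes were 4.33 ± 1.05 (SE, edgeR adjusted p = 0.00465) and 3.40 ± 1.00 (SE, edgeR adjusted p = 0.0365), whose size depends on the prior count edgeR adds. With 1 library left out they ranged between 3.88 and 6.25 on the high-fat and between 2.91 and 3.75 on the control diet, and the 6.25 came without high-fat sham replicate 1, which holds the only high-fat sham count. Exons of Ciita overlap those of Dexi on the opposite strand. Dexi averaged 22.7 and 21.4 CPM in 6-week high-fat and control-diet stroke against 25.4 and 26.4 CPM in sham on the same diets. It was not called for stroke on either diet (edgeR adjusted p = 0.248 and 0.0742). The part of Dexi reads in the Ciita counts was not tested.

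Under the alternatives run, the high-fat calls held for 6 of the 7 genes and were lost for Cd74 in 3 fits. Its edgeR adjusted p was 0.0656 with the share of counts outside genes as a covariate (8.62% of all genes called higher), 0.0525 without high-fat sham replicate 2 (8.44%) and 0.0530 when both choroid-rich libraries were left out (8.09%). On the control diet no member was called with that covariate (2.62% of all genes called higher), without stroke replicate 2 (1.45%), or without any 1 of the 3 sham libraries (1.32%, 1.14% and 1.33% for replicates 1, 2 and 3). There, 1 gene was called without stroke replicate 3 (H2-Ab1, with 2.81% of all genes called higher) or with no filter on low counts (Ciita, with 1.64%). Without stroke replicate 1, 4 were called (4.42%), with Cd74 at an edgeR adjusted p of 0.0602, and without stroke replicate 4, 6 were called (5.75%), with H2-DMb1 at 0.0494. DESeq2 called 6 (6.86%) and voom 6 (10.1%), H2-Aa being the one not called by voom (adjusted p = 0.0504). With only the groups compared edgeR called 5 of the 6 genes that passed the filter (9.97%), Ciita not being tested. The direction of all 7 genes was the same in these fits.

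**Figure D2:**
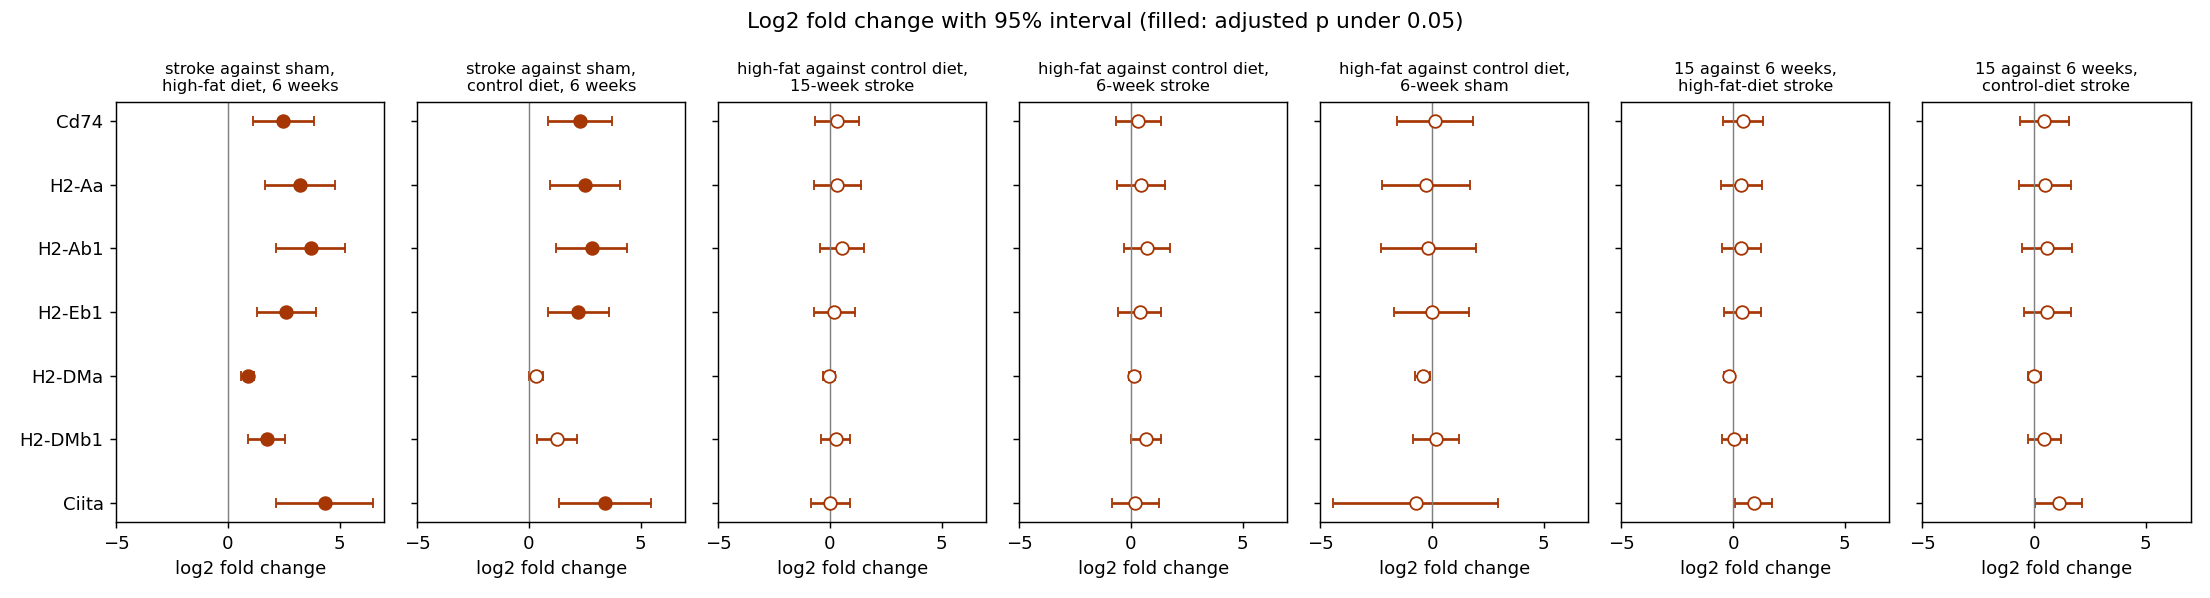
Log2 fold change (horizontal axis) of the 7 genes in 7 comparisons, 1 panel each, with the first-named group over the second. Points are edgeR estimates, bars 95% intervals, and filled points have an adjusted p under 0.05. Filled points stand only in the stroke against sham panels, 7 on the high-fat and 5 on the control diet.

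The difference between the diets in their response to stroke was tested as an interaction at 6 weeks. None of the 7 genes was called, and 0.0% of all genes were, by edgeR. At an unadjusted p under 0.05 there were 1 of the 7 and 914 genes in all (5.6%). By DESeq2 and by voom, 0 of the 7 were called. The 1 gene was H2-DMa, whose log2 fold change after stroke was greater on the high-fat diet by 0.57 ± 0.20 (SE, edgeR unadjusted p = 0.00793, adjusted p = 0.832). This gene also had a lower level in high-fat sham than in control-diet sham (5.59 to 7.35 against 7.70 to 9.55 CPM), and the interaction contains that difference. For the other genes the intervals were wide, for example -1.80 to 2.18 around 0.19 for Cd74 and -1.46 to 3.25 around 0.89 for H2-Ab1, so that sizeable differences in either direction were not detectable with these libraries.

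High-fat feeding was set against the control diet in 6-week stroke, 15-week stroke and 6-week sham cortex. No member was called in any of these by edgeR, DESeq2 or voom, and edgeR called 0.0% of all genes in each. At an unadjusted p under 0.05 there were 0 members in 6-week stroke, 0 in 15-week stroke and 1 in sham, against 6.99%, 7.96% and 4.79% of all genes. In 6-week stroke the means were higher on the high-fat diet for all 7 genes and in 15-week stroke for 6, with overlapping libraries for every gene (2.25% and 1.12% of all genes did not overlap, in either direction). At 6 weeks H2-DMb1 averaged 4.37 ± 0.845 CPM on the high-fat (SD, n = 6) and 2.78 ± 0.907 CPM on the control diet (SD, n = 4), a log2 difference of 0.65 ± 0.33 (SE, 95% interval -0.02 to 1.33, edgeR unadjusted p = 0.0571, adjusted p = 0.667). The H2-Ab1 difference was 0.73 ± 0.49 at 6 weeks (SE, 95% interval -0.29 to 1.76) and 0.53 ± 0.48 at 15 weeks (SE, 95% interval -0.47 to 1.52). The narrowest interval belonged to H2-DMa, from -0.09 to 0.40 around 0.15 at 6 weeks and from -0.29 to 0.21 around -0.04 at 15 weeks.

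In sham cortex, levels on the 2 diets overlapped for 6 of 7 genes. H2-DMa was the exception, at 7.35, 5.82 and 5.59 CPM on the high-fat diet and 9.55, 7.83 and 7.70 CPM on the control diet, with a log2 difference of -0.42 ± 0.16 (SE, edgeR unadjusted p = 0.0139, adjusted p = 0.965). Of all genes tested, 7.0% were lower on the high-fat diet without overlap. High-fat sham replicates 1, 2 and 3, in the order of the H2-DMa levels above, had 9.37, 268.9 and 35.2 CPM summed over choroid plexus genes. The part of choroid plexus tissue in the H2-DMa difference was not tested. Without both choroid-rich libraries the H2-DMa difference was -0.36 ± 0.19 (SE).

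Stroke cortex after 15 weeks on a diet was set against that after 6 weeks. Age and batch are not given in the labels, so they cannot be told apart from the weeks of feeding. The share of counts outside genes differed as well and averaged 27.4% ± 3.29 at 15 weeks against 21.6% ± 0.821 at 6 weeks on the high-fat diet (SD, n = 6 each) and 25.7% ± 2.25 against 21.4% ± 1.66 on the control diet (SD, n = 4 each). No member was called on the high-fat or the control diet, where 2.35% and 0.564% of all genes were, and libraries overlapped for all 7 (1.79% and 9.38% of all genes did not). At an unadjusted p under 0.05 there was 1 member on each diet, Ciita, against 17.7% and 16.8% of all genes. Ciita averaged 1.21 ± 0.581 CPM at 15 weeks against 0.632 ± 0.452 CPM at 6 weeks on the high-fat diet, and 1.21 ± 0.538 CPM against 0.549 ± 0.277 CPM on the control diet. The log2 differences were 0.92 ± 0.41 (SE, edgeR unadjusted p = 0.0330, adjusted p = 0.235) and 1.10 ± 0.52 (SE, edgeR unadjusted p = 0.0446, adjusted p = 0.285). High-fat Ciita was called higher at 15 weeks by voom (1.29 ± 0.37, SE, voom adjusted p = 0.0243, with 11.1% of all genes called). EdgeR called it without both 15-week libraries near sham (1.13 ± 0.37, SE, edgeR adjusted p = 0.0484, with 10.5% called). High-fat replicate 1, left out there, had the lowest Ciita level of its group (0.247 CPM), so its removal raises the 15-week mean. Control-diet Ciita had an edgeR adjusted p of 0.124 without both near-sham libraries. High-fat Ciita was not called with the share of counts outside genes as a covariate (edgeR adjusted p = 0.915, 0.0% of all genes called). Nor was it called by edgeR with only the groups compared (adjusted p = 0.341), no filter (0.340) or both choroid-rich libraries left out (0.356). The 4 genes Cd74, H2-Aa, H2-Ab1 and H2-Eb1 had differences between 0.37 and 0.60 on the 2 diets, with intervals that included 0. No diet by weeks difference was called for any of the 7 by edgeR, DESeq2 or voom, edgeR called 0.0% of all genes, and 0 of the 7 had an unadjusted p under 0.05 (4.85% of all genes).

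Within a stroke group, a library that was low for one of these genes was mostly low for the others. In 15-week high-fat stroke Cd74 ranged between 2.47 (replicate 1) and 29.6 CPM (replicate 5), and H2-Aa between 1.32 and 29.3 CPM. Replicate 1 was the lowest for 6 of the 7 genes, and its levels of H2-Aa (1.32 CPM) and H2-DMb1 (1.32 CPM) lay within the sham range. Replicate 3 of 15-week control-diet stroke was the lowest of its group for all 7, with Cd74 at 4.10 CPM against 19.7, 20.9 and 9.31 CPM in the other libraries. Its H2-DMb1 level, 1.21 CPM, lay within the sham range, and its H2-DMa level, 7.56 CPM, below all 3 control-diet sham libraries. Of the 20 stroke libraries, 18 lay above the highest sham library for H2-DMa, 18 for H2-DMb1, 19 for H2-Aa and 20 for each of the other genes. Replicate 2 was the highest for all 7 genes in 6-week stroke on either diet. Summed over the 7 genes, levels ran between 19.7 and 116.8 CPM in 15-week high-fat stroke, 43.2 and 95.01 CPM in 6-week high-fat stroke, 22.6 and 88.7 CPM in 15-week control-diet stroke and 26.7 and 70.4 CPM in 6-week control-diet stroke. In sham they ran between 12.4 and 14.6 CPM on the high-fat and between 13.3 and 17.2 CPM on the control diet.

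**Figure D3:**
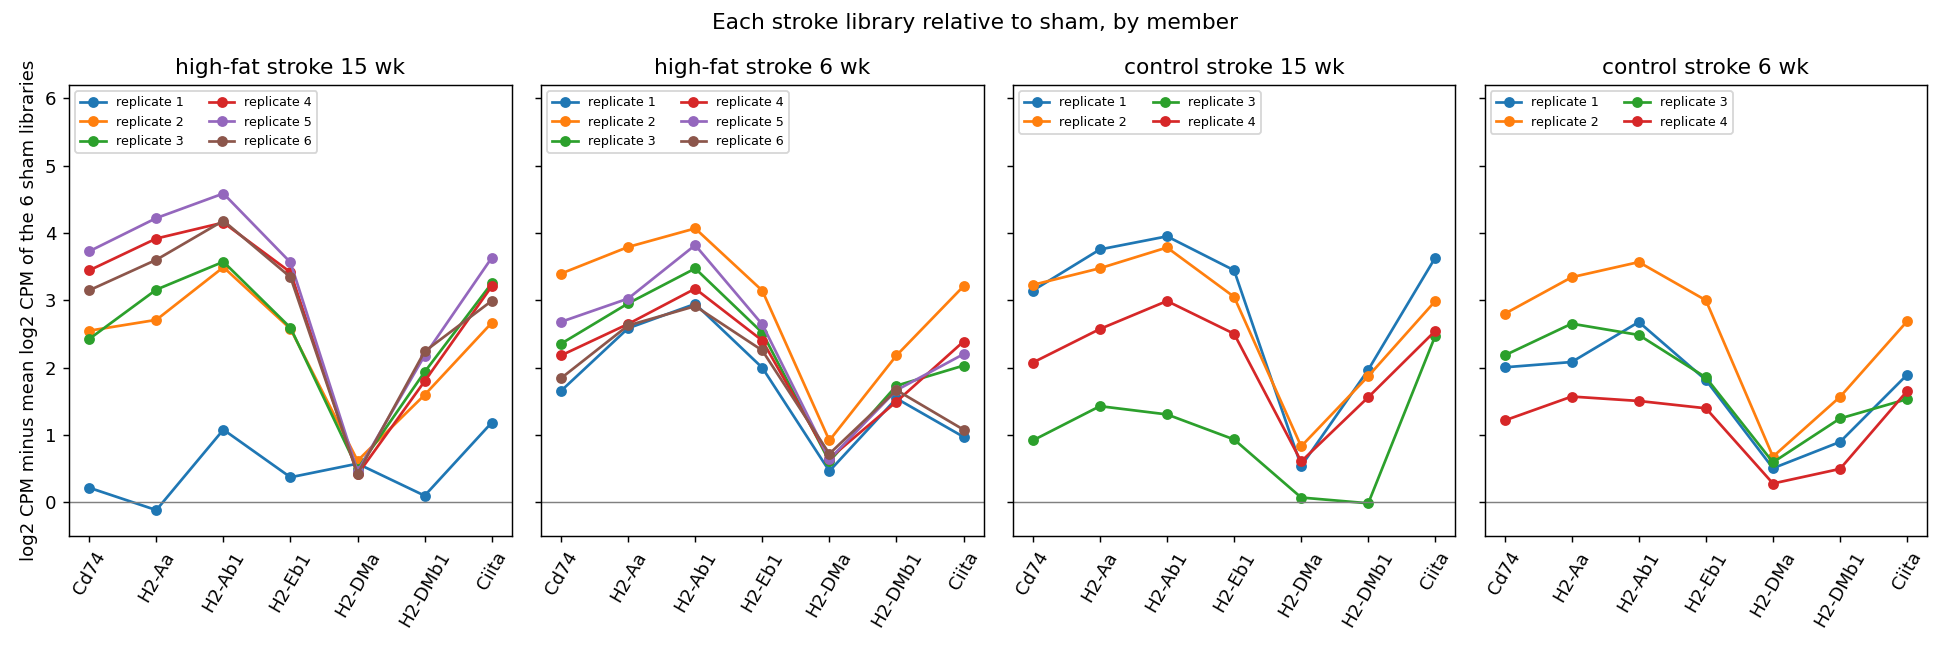
Log2 CPM of each gene in each stroke library (vertical axis, with a prior count of 2) minus its mean over the 6 sham libraries, with the genes along the horizontal axis and 1 line per library. The lines of a group run in a similar shape and come closest at H2-DMa, and the lowest belong to replicate 1 of 15-week high-fat stroke and replicate 3 of 15-week control-diet stroke.

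Over the 20 stroke libraries, each gene's log2 CPM was set against the mean of the other 6 genes, as deviations from the 4 group means. Pearson's r was 0.98 for Cd74, H2-Ab1 and H2-Eb1, 0.97 for H2-Aa, 0.94 for H2-DMb1, 0.81 for Ciita and 0.42 for H2-DMa. Spearman's rho was 0.96 for H2-Aa, 0.94 for Cd74, 0.93 for H2-Eb1 and 0.92 for H2-Ab1. It was 0.84 for H2-DMb1, 0.82 for Ciita and 0.29 for H2-DMa. H2-DMa also varied least within groups, with an SD of 0.18 on the log2 scale, against 1.08 for H2-Aa. Among the genes tested outside the 7, the 10 closest to their mean had r between 0.974 and 0.987 and Spearman's rho between 0.931 and 0.977. The first was Ctss, the protease cathepsin S that cuts the invariant chain, and Ctsh and Napsa encode further proteases of endosomes. Irf5 encodes an interferon regulatory factor, Unc93b1 a chaperone of endosomal toll-like receptors, Ccr2 the chemokine receptor of inflammatory monocytes, Npc2 a cholesterol carrier of lysosomes, Apoc2 an apolipoprotein and Apobec1 a cytidine deaminase. Gngt2, a G protein subunit gene, completed the list. All genes of a library share its depth and its piece of tissue, and these values are a description over 20 libraries.

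Levels between genes were compared per kilobase of exon. Cd74 came first in all 4 stroke groups, at 7.34 ± 3.60 CPM per kb in 6-week high-fat stroke (SD, n = 6) and 5.87 ± 2.56 CPM per kb in 6-week control-diet stroke (SD, n = 4), and Ciita came last, at 0.0662 ± 0.0474 and 0.0575 ± 0.0291 CPM per kb. In sham H2-DMa came first, at 1.81 ± 0.278 CPM per kb on the high-fat and 2.42 ± 0.298 CPM per kb on the control diet (SD, n = 3 each), followed by Cd74 at 1.31 ± 0.103 and 1.20 ± 0.118 CPM per kb. With the length of the longest transcript in place of all exons, H2-Ab1 passed Cd74 in 6-week high-fat stroke (8.996 against 8.74 CPM per kb). Between groups, the mean of each of the 7 genes was higher in all 4 stroke groups than in both sham groups, and neighbouring stroke groups overlapped for every gene.

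Other genes of class II presentation were counted in lists chosen with earlier results of these data known. Of 11 accessory genes 9 were tested, and 6 rose on the high-fat and 2 on the control diet, where 14.2% and 5.1% of all genes were called higher. Median log2 fold changes of the 9 were 1.57 and 1.02, and surgery by diet gave 0 calls in this list. Ifi30, which encodes the thiol reductase GILT of the antigen-processing endosome, averaged 19.7 ± 5.31 CPM in high-fat stroke (SD, n = 6) against 1.23 ± 0.287 CPM in sham (SD, n = 3), a log2 fold change of 3.99 ± 0.67 (SE, edgeR adjusted p = 0.000471). In control-diet cortex it averaged 11.8 ± 5.16 CPM in stroke (SD, n = 4) against 1.37 ± 0.270 CPM in sham (SD, n = 3). Ctss averaged 302.0 ± 57.1 CPM in high-fat stroke against 64.1 ± 8.60 CPM in sham (2.24 ± 0.39, SE, edgeR adjusted p = 0.000566), and rose by 1.59 ± 0.39 on the control diet (SE, edgeR adjusted p = 0.0179). The protease genes Lgmn and Ctsl rose on the high-fat diet by 1.57 ± 0.32 and 1.40 ± 0.28 (SE, edgeR adjusted p = 0.00157 and 0.00136). H2-Oa and H2-Ob, which encode the inhibitor of H2-DM, completed the 6 with rises of 1.61 ± 0.48 and 1.62 ± 0.47 (SE, edgeR adjusted p = 0.0181 and 0.0146). Marchf1, a ubiquitin ligase that removes class II molecules from the surface, had a log2 difference of -0.08 ± 0.08 on the high-fat diet (SE, edgeR adjusted p = 0.512).

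Of 11 genes of class II transcription, 4 rose on each diet, where 14.2% and 5.1% of all genes were called higher on the high-fat and control diet, and their medians were 0.19 and 0.10. The genes called were not the same on both diets. The myeloid factor gene Spi1 rose by 2.81 ± 0.40 on the high-fat and 1.59 ± 0.39 on the control diet (SE, edgeR adjusted p = 0.000196 and 0.0167). Irf8, another myeloid factor gene, rose by 2.23 ± 0.37 and 1.62 ± 0.39 (SE, edgeR adjusted p = 0.000442 and 0.0159). The interferon-induced factor gene Irf1 rose on the high-fat diet by 1.03 ± 0.27 (SE, edgeR adjusted p = 0.00834), with 0.41 ± 0.28 on the control diet (SE, edgeR adjusted p = 0.405). Nfya, an NF-Y subunit gene, rose on the control diet by 0.51 ± 0.12 (SE, edgeR adjusted p = 0.0137), with 0.30 ± 0.11 on the high-fat diet (SE, edgeR adjusted p = 0.0508). Genes of the X box complex did not pass the test on the high-fat diet, with Rfx5 at 20.2 ± 1.55 CPM in stroke against 20.2 ± 0.868 CPM in sham.

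In the interferon gamma pathway 3 of 6 genes tested rose on the high-fat and 0 on the control diet, where 14.2% and 5.1% of all genes were called higher. The receptor gene Ifngr1 rose by 0.79 ± 0.19 and the feedback inhibitor gene Socs1 by 1.20 ± 0.37 on the high-fat diet (SE, edgeR adjusted p = 0.00409 and 0.0196). Ifng itself had 3 counts in all over 26 libraries, 1 in each of 3 libraries of 6-week high-fat stroke. Of the costimulation genes 5 of 6 tested rose on the high-fat diet and 1, Cd86, on the control diet, against the same shares of all genes. Surgery by diet gave 0 calls in the interferon gamma and the costimulation list. Cd86, the ligand of CD28 on T cells, averaged 8.19 ± 0.824 CPM in high-fat stroke against 2.49 ± 0.600 CPM in sham, and 7.51 ± 1.81 CPM in control-diet stroke against 2.53 ± 0.787 CPM in sham.

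The class I pathway, which presents peptides of proteins made inside the cell, was counted beside it. All 9 of its genes rose on the high-fat and 5 on the control diet, where 14.2% and 5.1% of all genes were called higher. Their medians were 2.25 and 1.19, and surgery by diet gave 0 calls among them. B2m, the shared light chain of class I molecules, averaged 281.3 ± 64.1 CPM in high-fat stroke against 86.1 ± 14.0 CPM in sham, and 210.7 ± 41.6 CPM in control-diet stroke against 98.1 ± 11.3 CPM in sham. Nlrc5, the class I counterpart of Ciita, averaged 10.1 ± 3.22 CPM in high-fat stroke against 1.19 ± 0.0989 CPM in sham.

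**Figure D4:**
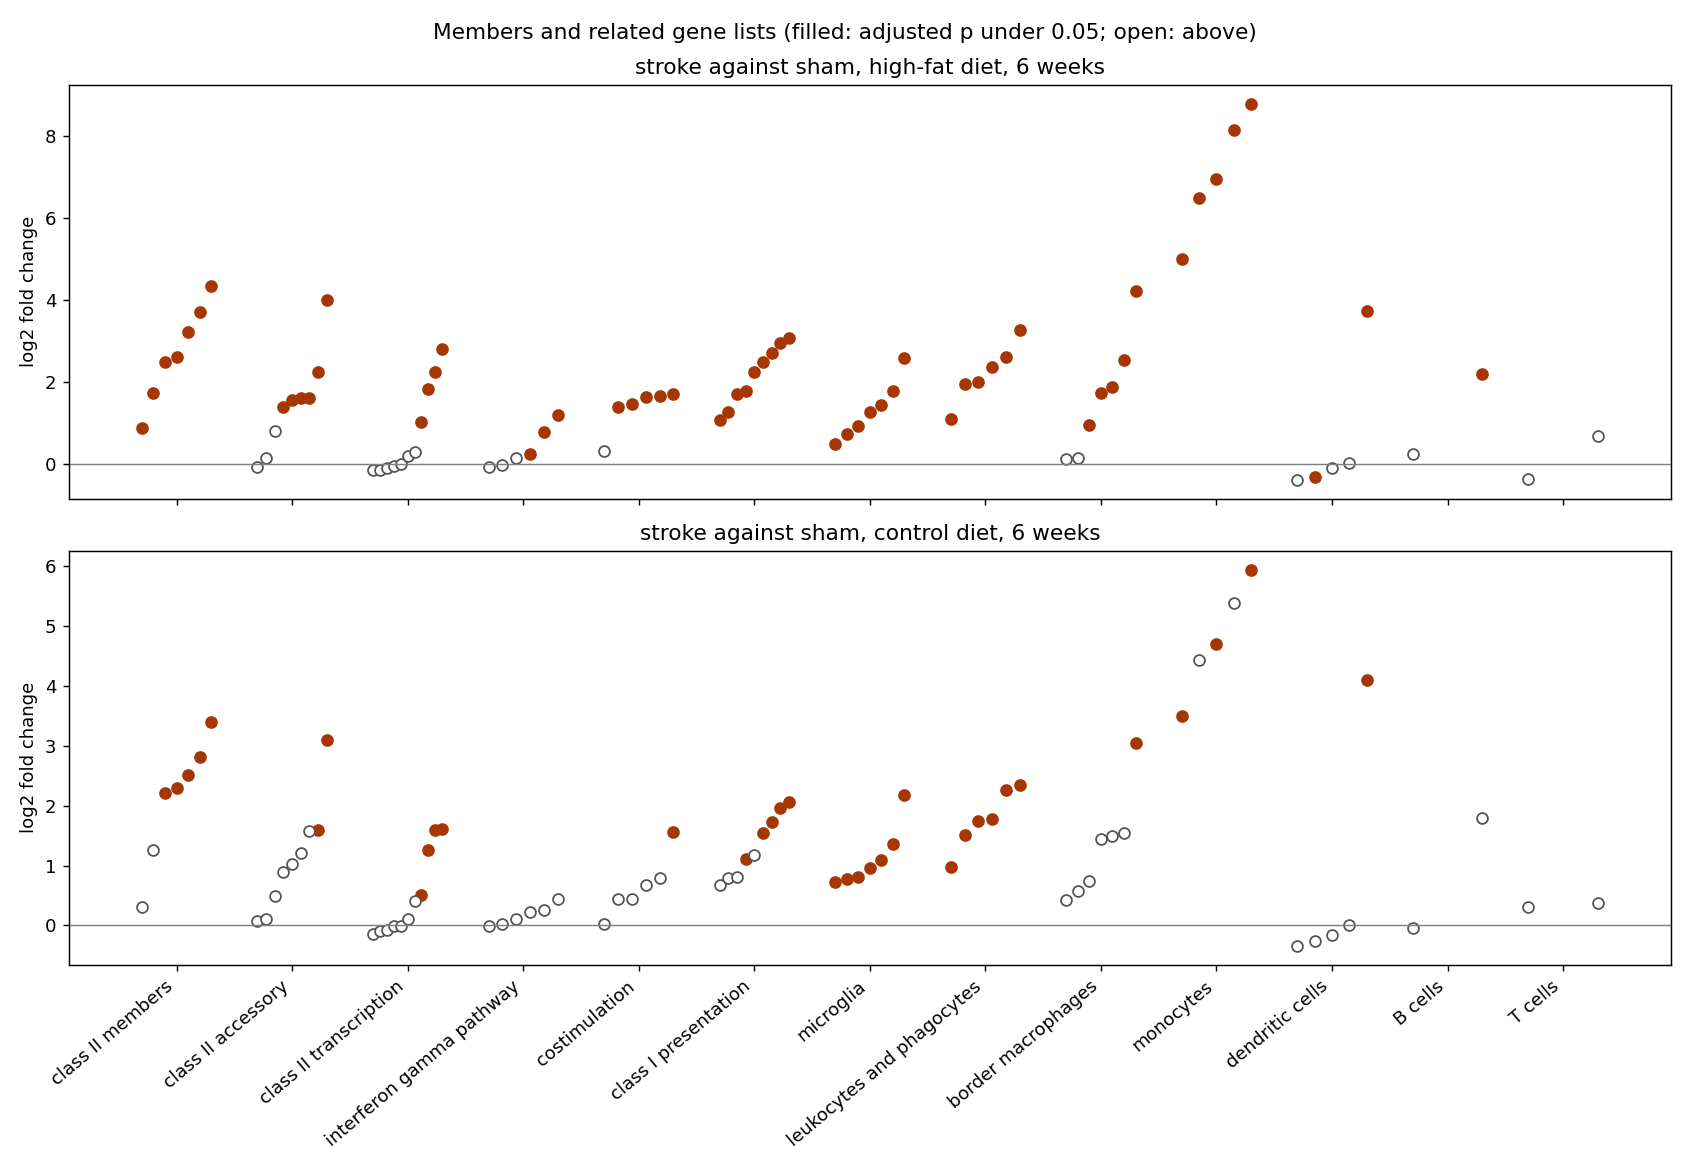
Log2 fold change of stroke against sham at 6 weeks (vertical axis) for each tested gene of the 7 members and of 12 related lists (horizontal axis), on the high-fat diet above and the control diet below. Filled points have an adjusted p under 0.05. All 7 microglia and all 6 leukocyte and phagocyte markers are filled on both diets, while T cell points are open.

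Many markers of cells that can carry class II molecules rose after stroke. Of all genes tested, 14.2% were called higher on the high-fat and 5.1% on the control diet. None of the markers in this paragraph was called for surgery by diet. All 7 microglia markers rose on both diets, and their summed level ran between 679.5 and 862.5 CPM in high-fat stroke against 228.7 and 266.9 CPM in sham. In control-diet cortex it ran between 471.5 and 808.9 CPM in stroke against 248.4 and 259.3 CPM in sham. All 6 markers of leukocytes and phagocytes rose on both diets, with summed levels between 323.2 and 487.6 CPM in high-fat stroke against 103.9 and 121.4 CPM in sham. Of the 5 monocyte markers 5 rose on the high-fat and 3 on the control diet. Their summed level ran between 14.0 and 40.98 CPM in high-fat stroke against 0.354 and 0.426 CPM in sham, and between 6.52 and 19.5 CPM in control-diet stroke against 0.484 and 0.909 CPM in sham. Of the 7 border macrophage markers 5 rose on the high-fat and 1, Ms4a7, on the control diet. Lyve1 and Cd163 were called on neither diet, with 0.15 ± 0.27 and 0.11 ± 0.33 on the high-fat diet (SE, edgeR adjusted p = 0.739 and 0.846). Sums of the 7 ran between 32.7 and 72.1 CPM in high-fat stroke against 15.9 and 20.9 CPM in sham. The part of any of these cells in the rise of the class II genes was not tested.

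Many markers of dendritic and lymphoid cells did not pass the filter on low counts, so few could be called. The share of all genes called higher was 14.2% on the high-fat and 5.1% on the control diet. Of 8 dendritic cell markers 5 were tested, and Itgax, which activated microglia and macrophages also express, rose on both diets, while Zbtb46 fell by 0.32 ± 0.11 on the high-fat diet (SE, edgeR adjusted p = 0.0384). The 8 markers summed to between 21.96 and 31.2 CPM in high-fat stroke against 24.3 and 31.6 CPM in sham. Most of that sum was Zbtb46 and Flt3, with means of 14.0 and 8.05 CPM in high-fat stroke. Xcr1 had 26 counts in all over 26 libraries, with 0 in both sham groups. The 6 B cell markers summed to between 23.1 and 47.5 CPM in high-fat stroke against 28.4 and 32.6 CPM in sham. Ighm made up most of that sum, with a mean of 35.3 CPM in high-fat stroke. Only 2 of the 6 were tested, and of these Cd79b rose on the high-fat diet by 2.19 ± 0.45 (SE, edgeR adjusted p = 0.00144). Pax5 had 13 counts in all, with 0 in high-fat sham and 1 in control-diet sham. The 7 T cell markers summed to between 2.62 and 8.32 CPM in high-fat stroke against 1.77 and 8.21 CPM in sham, and none of the 2 tested was called. Cd4 made up most of that sum, with a mean of 2.945 CPM in high-fat stroke. Such sums say little about the rarer markers of these lists. Cd3e had 8 counts in all, with 0 in both sham groups. Of 5 neutrophil markers 3 were tested, and 2 rose on the high-fat diet, where 14.2% of all genes were called higher. Ly6g had 0 counts in every library.

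In both 15-week stroke groups, the library with the lowest class II sum was also the lowest in leukocyte and phagocyte and in monocyte markers. At 6 weeks this held for replicate 4 of control-diet stroke. In 6-week high-fat stroke replicate 1 was the lowest in class II and monocyte sums. There replicate 6 had the lowest leukocyte and phagocyte sum (323.2 CPM, against 340.1 CPM in replicate 1). Replicate 1 of 15-week high-fat stroke had 145.1 CPM summed over leukocyte and phagocyte markers and 2.63 CPM over monocyte markers, and replicate 3 of 15-week control-diet stroke had 167.8 and 4.58 CPM, each the lowest of its group. Medians of those groups were 488.2 and 402.1 CPM for leukocytes and phagocytes and 35.6 and 17.9 CPM for monocytes. Their part in the class II levels of these libraries was not tested.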

How the data were processed

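Total RNA of mouse cortex was sequenced from stranded, paired-end libraries, per the labels' protocols. The authors deposited whole-number read counts for each Ensembl gene in a table of its own for every library, and the values show no normalization. Trim Galore, STAR, featureCounts, HTSeq and the build mm9 are named in the submitters' processing notes, with no role or version, and the strand setting is not given in the sources used here. Each table held 39179 genes and 5 summary entries, which took between 45.7% and 58.2% of the total and were left out. Symbols for 37607 identifiers came from GENCODE M21. Chi-square over its expectation was between 3.34 and 70.2 for libraries of the same group, so none was merged.

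The 7 genes, the other lists and the sets of libraries left out together were chosen with earlier results of these data known. Genes were filtered with filterByExpr in edgeR 4.0.16 (R 4.3.3, minimum count 10). The TMM-scaled counts of the 26 libraries entered a single robust quasi-likelihood fit, with a mean for each of the 6 groups. In all, 9 contrasts were tested over 16325 genes with Benjamini-Hochberg adjustment at 0.05, and "called" means an adjusted p under it. An SE is the log2 fold change divided by the square root of F. The fit was tested on simulated data. Alternatives were RLE size factors, no filter, a stricter filter (1 CPM in 3 libraries), the compared groups alone, the share of counts outside genes as a covariate, DESeq2 1.42.0, limma 3.58.1 voom with quality weights, and libraries left out. All 7 genes are named in each comparison, and of the other lists up to 4 genes with the smallest p plus genes at 0. Marchf1, Rfx5, H2-Oa, H2-Ob, Ms4a7, Lyve1, Cd163, B2m, Zbtb46, Flt3, Ighm, Cd4 and the genes with few counts were named after their values were seen. Values of some list genes are not reported here.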

Additional observations from a re-analysis of the deposited data

Results flagged for a closer look

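Of 28 pairs of a gene and a stroke group, 2 held a library far from the others of its group, where chance flags about 1 in 20. Both were replicate 2 of 6-week high-fat stroke. Its H2-Aa level was 21.7 CPM, against 9.32 to 12.7 CPM in the other 5 libraries, and its H2-DMb1 level was 6.02 CPM, against 3.69 to 4.37 CPM. That library was the highest of its group for all 7 genes. No difference of a stroke or diet effect between groups was called for any of the 7.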

How the results depend on the processing

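No paired analysis was possible because the labels give no replicate numbers, and the numbers used here only name libraries. For stroke against sham, 88 of 104 gene values kept direction and side of the threshold under alternatives other than leaving out 1 library, 12 lost and 4 gained a call, and 0 reversed. With 1 library left out the same held for 85 of 112, with 26 lost, 1 gained and 0 reversed. The count of control-diet calls, 5 in the fit as reported, was 6 by DESeq2, 6 by voom, 5 with RLE size factors, the stricter filter or only the groups compared, 1 with no filter on low counts and 0 with the covariate, and ranged between 0 and 6 over libraries left out. The 15 against 6 weeks count on the high-fat diet, 0 as reported, was 1 by voom and 1 without both 15-week libraries near sham. The cause of these shifts was not tested, apart from the smaller number of samples where libraries were left out.

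In the other comparisons, 395 of 405 gene values were unaltered in direction and call, 2 gained a call and 8 reversed, all of them uncalled. These 8 log2 differences were 0.0023 (no filter) and 0.12 (covariate) for Cd74 and 0.030 (voom) for Ciita in diet by weeks, 0.012 (covariate) for H2-DMa between diets in 15-week stroke, and, between diets in sham, 0.084 (covariate) and 0.0065 (only the groups compared) for H2-Eb1 and 0.12 (voom) and 0.0077 (without both choroid-rich libraries) for H2-Ab1. With 1 library left out, 46 of 574 values reversed, again uncalled. Their ranges were -0.092 to 0.52 for Cd74 in surgery by diet and -0.20 to 0.64 for Ciita between diets in 6-week stroke. Between diets in 15-week stroke they were -0.099 to 0.54 (H2-Eb1), -0.17 to 0.074 (H2-DMa), -0.015 to 0.45 (H2-DMb1) and -0.18 to 0.35 (Ciita). Between diets in sham they were -0.43 to 0.040 (H2-Aa), -0.40 to 0.059 (H2-Ab1) and -0.27 to 0.25 (H2-Eb1). In diet by weeks they were -0.33 to 0.28 (Cd74), -0.55 to 0.20 (H2-Aa), -0.68 to 0.078 (H2-Ab1), -0.68 to 0.14 (H2-Eb1) and -0.62 to 0.23 (Ciita). Between 15 and 6 weeks they were -0.092 to 0.18 for H2-DMa on the control and -0.059 to 0.24 for H2-DMb1 on the high-fat diet. Of 42 levels per kilobase, 20 moved with the longest transcript's length. Depth limits Ciita most, at 0 to 31 counts per library.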
